A study of Mus musculus with 8 samples.

Results

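The type I interferon response genes described here are 9 mouse genes that interferon switches on: Ifit1, Ifit2, Ifit3, Isg15, Oas1a, Oasl2, Irf7, Usp18 and Rsad2. They were taken by symbol from the gene counts of whole kidneys, the interferon-inducible GTPase genes being kept apart, and all 9 were found among 37583 gene identifiers. There were 4 libraries labelled knockout, from mice with the Cre recombinase driven by Six2, both Tfap2a alleles floxed (TFAP2Afl/fl) and 1 Tfap2b allele floxed with the other intact (TFAP2Bfl/WT), and 4 libraries labelled wildtype, from control littermates given as WT. Six2 marks the progenitors of the nephron, while vessels and immune cells of the kidney come from other lineages, and whole kidney holds all of them. The labels used here give no age, sex or litter, and they do not say whether the controls carried floxed alleles. Nor is it said whether each library is from its own animal, so a p-value here speaks only of the spread among these 8 libraries, which may be technical.

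Type I interferons signal through a shared receptor, IFNAR1 with IFNAR2, to the kinases JAK1 and TYK2, which activate transcription factors of the STAT family. A complex of these with IRF9 binds a DNA motif, the interferon-stimulated response element, before the induced genes. In kidney the response is best known from viral infection and lupus nephritis, and a low level without infection is common in many tissues.

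The promoters of most of these genes held the core letters of that motif, and the stretches that hold it are given here because it is the common entry point of the pathway. Windows of 300 bases, from 250 before to 50 after the start of transcription, were read from RefSeq on GRCm38.p6 and existed for 8 of the 9 genes, Usp18 having none in the table. The motif core searched was GAAANNGAAA on both strands, with overlapping matches allowed, where N is any base. It was found in the windows of 5 of the 8 genes (62.5%), against 3.99% of all 27025 genes with a window. The 5 stretches of 100 bases run 5′ to 3′ on each gene's own strand, and capitals mark every base of a core match, read as TTTCNNTTTC where it lies on the opposite strand.
Ifit1 (chr19:34640745-34640844, plus strand): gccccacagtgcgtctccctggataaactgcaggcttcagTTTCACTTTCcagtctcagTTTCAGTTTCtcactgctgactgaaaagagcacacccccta
Ifit3 (chr19:34583333-34583432, plus strand): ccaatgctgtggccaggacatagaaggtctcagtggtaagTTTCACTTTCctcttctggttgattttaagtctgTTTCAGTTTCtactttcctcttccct
Isg15 (chr4:156200837-156200936, minus strand): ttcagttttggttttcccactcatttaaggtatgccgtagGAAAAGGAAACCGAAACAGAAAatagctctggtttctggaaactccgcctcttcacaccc
Oas1a (chr5:120907486-120907585, minus strand): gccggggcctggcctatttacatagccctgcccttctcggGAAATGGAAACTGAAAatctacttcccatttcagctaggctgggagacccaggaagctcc
Rsad2 (chr12:26456513-26456612, minus strand): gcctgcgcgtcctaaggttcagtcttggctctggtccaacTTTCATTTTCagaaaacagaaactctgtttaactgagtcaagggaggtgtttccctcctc
Ifit1 and Ifit3 each held a pair of separate matches, Isg15 held 3 overlapping matches in 1 run, Oas1a held 2 overlapping matches and Rsad2 held 1. The windows of Ifit2, Oasl2 and Irf7 held no match to these letters. Among 44 other interferon-stimulated genes with a window, 16 (36.4%) held the core. A second core, TTCNNNGAA, the gamma-activated site of the interferon gamma pathway, was found for 2 of the 8 genes (Ifit2, in the first of its 2 windows, and Oas1a) and in 9.55% of all genes. A match is a description of letters and not a measured site.

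The libraries held 13871861 to 16629301 counts on genes. CPM values below are read counts scaled to the TMM-normalized size of each library. The tissue label was borne out, since 12 genes of tubule and podocyte summed to 42107 to 67632 CPM in every library. The genotype label was not. Tfap2a was at 5.05 ± 0.99 CPM under the knockout label and 4.22 ± 1.08 CPM under the wildtype label, and Tfap2b at 80.0 ± 20.3 CPM under the knockout label and 78.3 ± 20.5 CPM under the wildtype label (SD, n = 4 each). Neither targeted gene was lower where the label says knockout, so every direction given here rests on labels that these counts did not bear out. A count over a whole gene includes exons outside a deleted part, and which exons were floxed is not given in the sources used here. Some libraries stood apart in other transcripts. Adrenal cortex genes summed to 916 CPM in knockout 2 and 888 CPM in wildtype 1, and to at most 11.4 CPM elsewhere. Heat-shock genes summed to 760 CPM in knockout 2 and 1220 CPM in knockout 4, and to 255 to 347 CPM elsewhere. Red cell genes summed to 7720 CPM in knockout 1, and to 116 to 1309 CPM in the other 7 libraries.

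None of the 9 interferon response genes passed the test between libraries labelled knockout and wildtype, where 0% of all 14433 tested genes passed (edgeR quasi-likelihood test, two-sided, Benjamini-Hochberg adjustment; adjusted p 0.957 to 0.986 for the 9). At an unadjusted p under 0.05 there was 1, Irf7, lower in the libraries labelled knockout, and 1.84% of all tested genes were lower at that level. The groups overlapped in CPM for all 9, while 1.97% of tested genes did not overlap. The differences split evenly, 4 positive and 5 negative, and 51.3% of all tested genes were positive. Their median log2 difference was -0.047, against 0.006 over all tested genes. The 95% interval of the difference lay within 1 log2 unit of 0 on either side for 7 of the 9, all but Isg15 and Rsad2, and for 86.5% of all tested genes. A change inside these intervals was not detectable with 4 libraries per group. DESeq2 and limma-voom also called 0 of the 9, and each gave Irf7 an unadjusted p just above 0.05 (0.0520 and 0.0570). In bulk RNA from whole kidney, fewer cells of a type and less RNA per cell cannot be told apart.

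**Figure D1:**
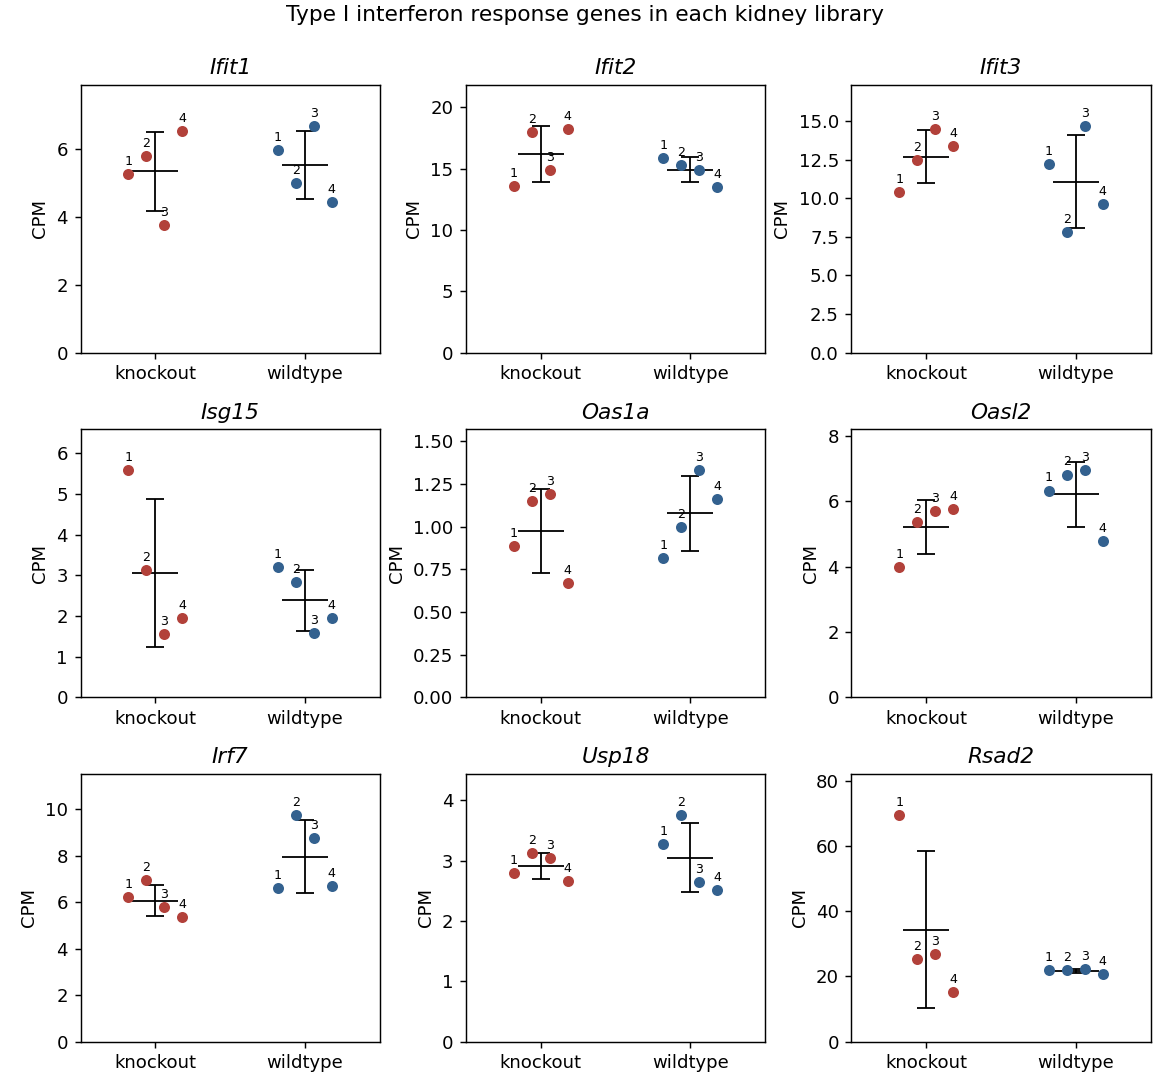
Level of each of the 9 interferon response genes, in CPM on a linear axis from 0, in the 4 libraries labelled knockout (red) and the 4 labelled wildtype (blue). Small digits are replicate numbers, the long bar is the mean and the whiskers are 1 SD (n = 4). The groups overlap in every panel, and knockout 1 stands above the other 7 libraries for Isg15 and Rsad2.

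Levels differed widely between the 9 genes. Exon length here merges the exons of all annotated transcripts of a gene. For Irf7 the merged length is 3776 bases, the whole span of the gene, so its level per kilobase may be understated. The order of the genes depends on these lengths. Per kilobase of exon, Ifit3 averaged 6.82 CPM and Rsad2 6.47 CPM over the 8 libraries, followed by Ifit2 at 3.96, Isg15 at 3.59, Ifit1 at 2.05, Irf7 at 1.86, Usp18 at 1.07, Oasl2 at 0.896 and Oas1a at 0.544 CPM per kilobase. Ifit3 and Rsad2 overlapped in their ranges over libraries, 4.48 to 8.44 and 3.53 to 16.1 CPM per kilobase. Isg15 (2.06 to 7.38) overlapped both of them and also Ifit2 (3.44 to 4.65), so these ranges alone do not order the 4 genes. Compared within each library, Ifit3 lay above Ifit2 throughout. Isg15 also overlapped Ifit1 (1.42 to 2.52), and Ifit1 overlapped Irf7 (1.42 to 2.59), while Usp18 (0.903 to 1.35) lay below every value of Irf7 and overlapped Oasl2. Oas1a, at 0.355 to 0.704 CPM per kilobase, lay below every library's value for the other 7 genes. Its range overlapped that of Oasl2, at 0.627 to 1.09, but within each library Oas1a was the lower.

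Irf7 encodes the transcription factor that amplifies production of interferon alpha, and it came nearest to a difference between the groups. Irf7 (ENSMUSG00000025498, chromosome 7, 141262706 to 141266481 on GRCm38) was at 6.22, 6.95, 5.79 and 5.35 CPM in knockout 1 to 4, against 6.60, 9.77, 8.78 and 6.72 CPM in wildtype 1 to 4. The highest 2 values were in wildtype 2 and wildtype 3, and knockout 2 lay above the lowest 2 wildtype libraries. The means were 6.08 ± 0.685 CPM under the knockout label and 7.97 ± 1.56 CPM under the wildtype label, a log2 difference of -0.39 (95% interval -0.78 to -0.0015, SE 0.18; edgeR unadjusted p = 0.0493, adjusted p = 0.957). An exact permutation test of its log2 CPM gave p = 0.0857 over 70 arrangements, where the smallest possible is 0.0286. Without wildtype 2 the difference was -0.28 (edgeR unadjusted p = 0.158), and with RLE size factors its unadjusted p was 0.0505. Without wildtype 1 it was -0.47 (edgeR unadjusted p = 0.0283) and without knockout 2 and wildtype 1, the libraries with adrenal transcripts, -0.54 (edgeR unadjusted p = 0.0240); every alternative kept the sign and none gave an adjusted p under 0.05. Phrf1, a gene on the opposite strand, overlaps Irf7 in GENCODE M21, and counting ignored strand. Reads that lie on exons of both genes may be among the ambiguous reads left out, so the level of Irf7 is uncertain there.

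The IFIT proteins bind foreign RNA and hold back its translation. Their genes lie together on chromosome 19, and none of the 3 differed between the groups beyond the spread of libraries. Ifit1 (ENSMUSG00000034459, 34640871 to 34650009) was at 5.27, 5.81, 3.78 and 6.55 CPM in knockout 1 to 4, against 5.99, 5.01, 6.70 and 4.46 CPM in wildtype 1 to 4. Both groups spanned nearly the same range, with the lowest value in knockout 3 and the highest in wildtype 3. Its means were 5.35 ± 1.17 CPM under the knockout label and 5.54 ± 1.00 CPM under the wildtype label, a log2 difference of -0.05 (95% interval -0.51 to 0.41, SE 0.21; edgeR adjusted p = 0.986). The sign of this small difference turned without knockout 3 (0.08) or without wildtype 3 (0.06).

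Ifit2 (ENSMUSG00000045932, 34550694 to 34576419), which in mouse protects neurons from viral infection, was at 13.6, 18, 14.9 and 18.2 CPM in knockout 1 to 4, against 15.9, 15.3, 14.9 and 13.5 CPM in wildtype 1 to 4. The 2 highest values were in knockout 2 and knockout 4, the libraries with the highest heat-shock sums, and their part in the result was not tested. The means were 16.2 ± 2.30 CPM under the knockout label and 14.9 ± 1.03 CPM under the wildtype label, a log2 difference of 0.12 (95% interval -0.17 to 0.40, SE 0.13; edgeR adjusted p = 0.957). Without those 2 libraries the difference was -0.07. By the ratio of highest to lowest CPM, Ifit2 had the narrowest range of the 9, at 1.35 times.

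Ifit3 (ENSMUSG00000074896, 34583531 to 34588731), which stabilises IFIT complexes, was at 10.4, 12.5, 14.5 and 13.4 CPM in knockout 1 to 4, against 12.2, 7.83, 14.7 and 9.62 CPM in wildtype 1 to 4. The wildtype libraries held both the lowest value, in wildtype 2, and the highest, in wildtype 3, so the knockout range lay inside the wildtype one. The means were 12.7 ± 1.75 CPM under the knockout label and 11.1 ± 3.02 CPM under the wildtype label, a log2 difference of 0.19 (95% interval -0.24 to 0.63, SE 0.20; edgeR adjusted p = 0.957). It was 0.06 without wildtype 2, 0.12 without knockout 3 and 0.36 without wildtype 3. Ifit3 has a near copy, Ifit3b, which shares 51.2% of its windows of 50 bases, so reads there could be set aside as not unique and its level is uncertain. Ifit3b differed by -0.21 (SE 0.17; edgeR adjusted p = 0.957). Ifit1 shares 7.1% of its windows with Ifit1bl2, and Ifit2 shares none.

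The oligoadenylate synthetases sense double-stranded RNA and make a small messenger that sets off the breakdown of RNA. Both members of this kind lie on chromosome 5. Oas1a (ENSMUSG00000052776, 120896256 to 120907521) was at 0.888, 1.15, 1.19 and 0.668 CPM in knockout 1 to 4, against 0.817, 1.00, 1.33 and 1.16 CPM in wildtype 1 to 4. These are only 10 to 21 counts per library, and the groups overlapped throughout. The log2 difference was -0.15 (95% interval -0.80 to 0.49, SE 0.29; edgeR adjusted p = 0.967) between means of 0.973 ± 0.243 CPM under the knockout label and 1.08 ± 0.219 CPM under the wildtype label. It was -0.0057 without knockout 4, -0.04 without wildtype 3, and -0.26 without knockout 3 or without wildtype 1. Oas1a shares 57.6% of its windows of 50 bases with Oas1g, so its count is uncertain as well.

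Oasl2 (ENSMUSG00000029561, 114896936 to 114912234), an oligoadenylate synthetase-like gene, was at 4.00, 5.36, 5.71 and 5.75 CPM in knockout 1 to 4, against 6.33, 6.82, 6.95 and 4.78 CPM in wildtype 1 to 4. All libraries labelled knockout lay below 3 of the 4 labelled wildtype, and wildtype 4 lay below 3 of the 4 labelled knockout. The means were 5.20 ± 0.824 CPM under the knockout label and 6.22 ± 0.998 CPM under the wildtype label, a log2 difference of -0.26 (95% interval -0.67 to 0.15, SE 0.19; edgeR adjusted p = 0.957). The exact permutation test gave p = 0.229.

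Rsad2 encodes viperin, an enzyme that makes a chain-terminating nucleotide against viral RNA synthesis. Rsad2 (ENSMUSG00000020641, chromosome 12, 26442746 to 26456452) was at 69.6, 25.3, 27.0 and 15.3 CPM in knockout 1 to 4, against 21.9, 22.0, 22.2 and 20.9 CPM in wildtype 1 to 4. The wildtype libraries were nearly level with each other, and the knockout libraries lay on both sides of them, with knockout 1 far above and knockout 4 below. The means were 34.3 ± 24.1 CPM under the knockout label and 21.8 ± 0.585 CPM under the wildtype label, a log2 difference of 0.66 (95% interval -0.26 to 1.57, SE 0.40; edgeR adjusted p = 0.957). The knockout mean rested on 1 library. Without knockout 1 it was 22.5 CPM and the log2 difference 0.05 (SE 0.18). Without knockout 2 and 4 the difference was 1.15 (edgeR adjusted p = 0.743).

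ISG15 is a small protein that is joined to other proteins in the manner of ubiquitin, and USP18 removes it and also blocks the interferon receptor. Isg15 (ENSMUSG00000035692, chromosome 4, 156199424 to 156200818) was at 5.58, 3.13, 1.56 and 1.94 CPM in knockout 1 to 4, against 3.20, 2.82, 1.58 and 1.94 CPM in wildtype 1 to 4. Knockout 1 was again the highest, while knockout 2 to 4 spanned about the range of the wildtype libraries. The means were 3.05 ± 1.81 CPM under the knockout label and 2.38 ± 0.752 CPM under the wildtype label, a log2 difference of 0.36 (95% interval -0.52 to 1.25, SE 0.40; edgeR adjusted p = 0.957), and it was -0.10 without knockout 1.

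Usp18 (ENSMUSG00000030107, chromosome 6, 121245906 to 121270917) was at 2.79, 3.13, 3.04 and 2.67 CPM in knockout 1 to 4, against 3.27, 3.76, 2.65 and 2.52 CPM in wildtype 1 to 4. The knockout libraries were close to each other and lay inside the wildtype range. The means were 2.91 ± 0.212 CPM under the knockout label and 3.05 ± 0.573 CPM under the wildtype label, a log2 difference of -0.07 (95% interval -0.51 to 0.37, SE 0.20; edgeR adjusted p = 0.975). Without wildtype 2 the sign turned (0.05).

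**Figure D2:**
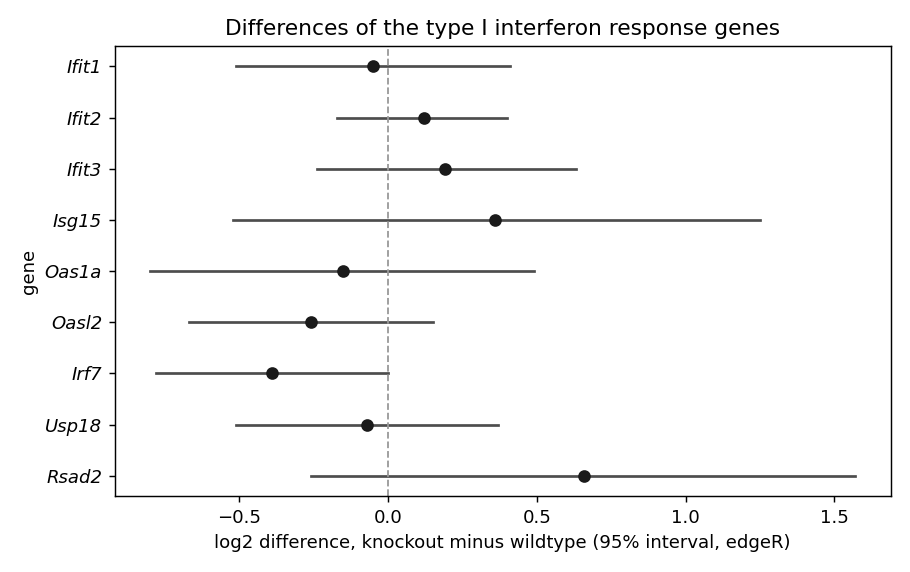
Log2 difference, knockout minus wildtype by label, of the 9 interferon response genes (points) with the 95% interval from the edgeR fit (lines); the dashed line marks 0. The interval of Irf7 ends at -0.0015, the other 8 intervals include 0, and those of Isg15 and Rsad2 are the widest.

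The spread over libraries differed widely between the genes. Set against counting error alone, where a value of 1 means no more than counting, the variance over the 8 libraries was 0.721 for Oas1a and 0.87 for Usp18. It was 2.75 for Ifit1, 2.79 for Oasl2, 3.15 for Ifit2, 4.97 for Irf7, 7.73 for Ifit3, 10 for Isg15 and 163 for Rsad2. The median over 8624 tested genes with a mean of 10 to 500 counts was 3.64. Oas1a and Usp18 varied no more than counting allows, at 10 to 21 and 39 to 60 counts per library. This measure grows with the number of counts, so it does not rank genes of unlike depth by their relative spread.

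No common profile of the 9 genes was seen over the 8 libraries. Oas1a and Usp18 varied no more than counting allows, so their pairs say little about a shared profile. With 8 libraries and 36 pairs, only a strong correlation could pass. Of their 36 pairs, 18 had a positive and 18 a negative Pearson correlation of log2 CPM over the 8 libraries, with a median r of 0.03 and a range of -0.68 to 0.72. None passed an exact permutation test over all pairings of the libraries (smallest adjusted p = 0.813 for Pearson and 0.804 for Spearman, over 36 pairs), and 0 had an unadjusted Pearson p under 0.05. The median r was 0.08 when the 2 libraries farthest from the median were left out. Over all 8 libraries the median r was 0.67 for 105 pairs of the interferon-inducible GTPase genes and 0.14 for other interferon-stimulated genes, as a description of libraries that all these genes share. The GTPase genes also varied more. Their median ratio of highest to lowest CPM was 4.55, against 1.83 for the 9 genes and 1.8 for the other interferon-stimulated genes, so these values of r are not directly comparable.

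Isg15 and Rsad2 had the highest correlation, r = 0.72 (exact permutation p = 0.0592) with a rank correlation of 0.14 (p = 0.752), and it rested on knockout 1: r was 0.46 without knockout 1 and 3, the libraries farthest from the median of Isg15, and 0.08 without knockout 1 alone. Oasl2 and Irf7 reached r = 0.55 (exact permutation p = 0.156), and 0.47 without knockout 1 and wildtype 3. Ifit1 and Ifit2, which lie on either side of Ifit3 on chromosome 19, reached r = 0.52 (exact permutation p = 0.182), and 0.43 without knockout 3 and wildtype 4. The lowest value was that of Oasl2 with Rsad2, r = -0.68 (exact permutation p = 0.0715), which was -0.02 without knockout 1 and wildtype 3.

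**Figure D3:**
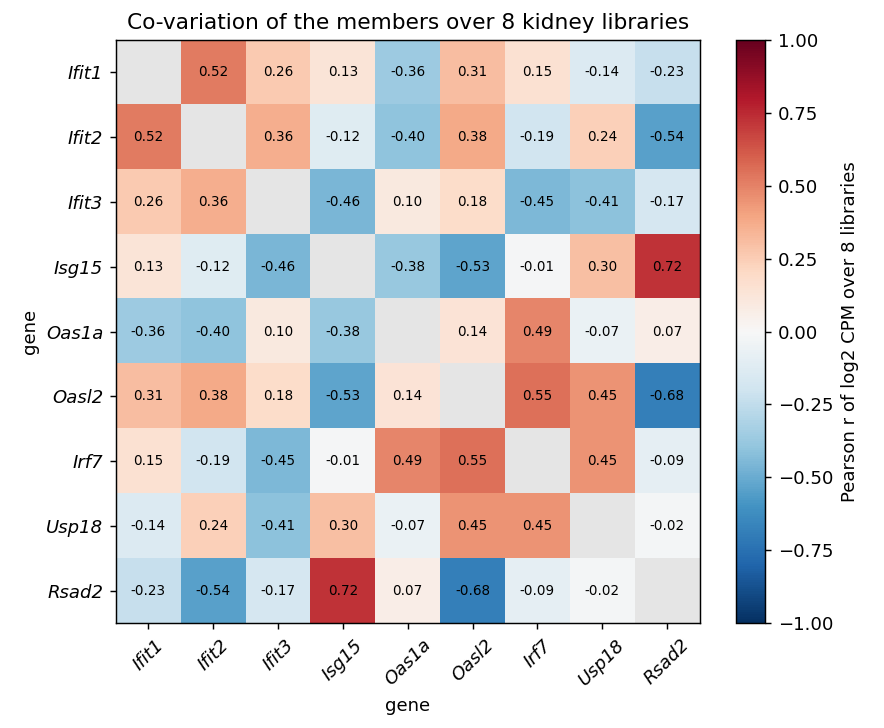
Pearson r of log2 CPM over the 8 libraries for each pair of the 9 interferon response genes, from -1 (blue) to 1 (red), with the value in each cell and the diagonal left grey. Positive and negative cells are mixed, and the extremes are 0.72 for Isg15 with Rsad2 and -0.68 for Oasl2 with Rsad2.

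Single genes peaked in different libraries. Wildtype 3 had the highest value of Ifit1, Ifit3, Oas1a and Oasl2, wildtype 2 of Irf7 and Usp18, knockout 1 of Isg15 and Rsad2, and knockout 4 of Ifit2. Knockout 4 also had the lowest value of Oas1a, Irf7 and Rsad2. The mean z-score of the 9 genes was -0.10, 0.38, -0.20 and -0.25 in knockout 1 to 4, against 0.17, 0.26, 0.37 and -0.62 in wildtype 1 to 4. Of the 9 genes, 2, 8, 5 and 4 lay above their own mean log2 CPM over the libraries in knockout 1 to 4, against 6, 4, 5 and 1 in wildtype 1 to 4. Knockout 2 was thus above the mean for all but Oasl2, without holding the highest value of any gene, and wildtype 4 was below it for all but Oas1a. Correlation of single genes of the 9 with this mean profile ran from 0.02 for Rsad2 to 0.60 for Irf7. Each of them is part of the profile, which raises these values, so they do not compare directly with those of outside genes.

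The genes outside the set with the most similar pattern to that mean profile were Hivep3 (r = 0.94), Tax1bp3 (0.93), Nrip1 (0.92), Cfap54 and Dtna (0.91 each), Accs (0.90), Ms4a6b, 4933417A18Rik, Rsbn1, Fkbp1b and Dlat (0.89 each) and Unc13a (0.88). They are the 12 highest of 13390 genes ranked over 8 libraries, 51 of which exceeded 0.8. Nrip1, a nuclear receptor corepressor, was at 42.4, 44.7, 38.3 and 38.4 CPM in knockout 1 to 4, against 41.2, 42.4, 44.1 and 37.0 CPM in wildtype 1 to 4. None of these 12 genes is in the lists of interferon-stimulated genes used here.

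Knockout 1 held the values of Rsad2 and Isg15 that lay farthest above the other libraries. Relative to the median of the other 7 libraries, Rsad2 was 3.16 times and Isg15 2.88 times as high there, and the other 7 genes of the set were at 0.695 to 0.926 times. In no other library did any of the 9 reach 2 times the median of the rest. Of 111 other genes of the pathway lists, 3 reached 2 times in knockout 1, a share near the 1.93% of all tested genes in that library: Ube2l6, the enzyme that carries ISG15 to its targets, Ifitm1, a membrane protein that limits viral entry, and Isg20, an RNA-degrading exonuclease. Isg20, Cmpk2, Hba-a1 and Alas2 are named here after their values were seen.

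Ube2l6 was at 16.1, 5.49, 3.86 and 4.01 CPM in knockout 1 to 4, against 4.42, 3.44, 3.03 and 2.97 CPM in wildtype 1 to 4. Isg20 was at 18.1, 4.15, 0.890 and 2.87 CPM in knockout 1 to 4, against 2.59, 1.75, 1.64 and 2.07 CPM in wildtype 1 to 4. For both genes knockout 1 was highest and knockout 2 next, and the remaining libraries overlapped.

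Cmpk2, a nucleotide kinase gene 12.8 kb from Rsad2 that interferon also induces, was at 13.6 CPM in knockout 1, 1.07 times the median of the other 7 libraries and within their range of 8.93 to 15.2 CPM. The same library held the most red cell transcripts. Hba-a1, an alpha globin, was at 1241 CPM in knockout 1, 21.0 times the median of the others, and Alas2, the heme synthesis enzyme of red cells, at 145 CPM, 19.7 times. Summed erythroid genes were at 7720, 1165, 192 and 632 CPM in knockout 1 to 4, against 1309, 200, 116 and 236 CPM in wildtype 1 to 4. Summed neutrophil genes were at 9.20, 2.55, 1.63 and 5.35 CPM in knockout 1 to 4, against 13.7, 1.63, 1.01 and 1.23 CPM in wildtype 1 to 4. The sum was thus higher in wildtype 1 than in knockout 1. Within that list Csf3r (1.52 against 0.340 CPM) and Retnlg (0.952 against 0.680 CPM) were higher in knockout 1 than in wildtype 1, and the other genes were higher in wildtype 1. Knockout 1 also had the largest shares of reads outside genes (16.2%) and without a unique place (20.9%). The part of red cells and of read quality in the values of Rsad2 and Isg15 was not tested.

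**Figure D4:**
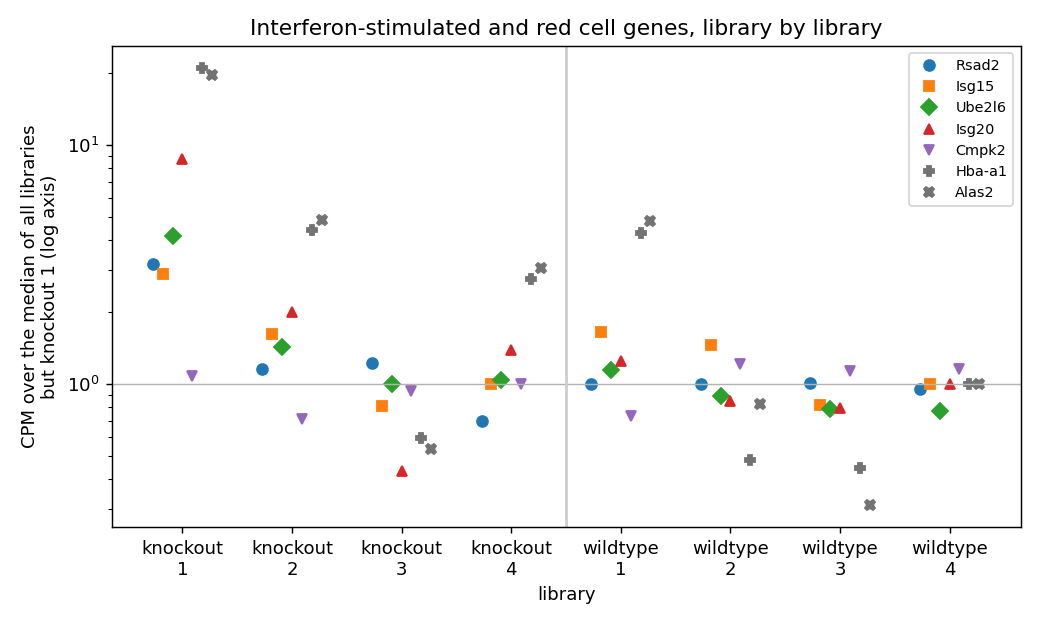
Level of each gene in each library divided by its median over the 7 libraries other than knockout 1, on a log axis, for Rsad2 and Isg15, for the interferon-stimulated genes Ube2l6, Isg20 and Cmpk2, and for Hba-a1 and Alas2 of red cells (grey). In knockout 1 Rsad2 is at 3.16, Isg15 at 2.88 and Cmpk2 at 1.07 times, and Hba-a1 is at 21.0 times.

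Upstream of the 9 genes, counts of the matched interferon genes were at or near 0. Of 19 interferon genes listed, 10 were matched and the others were not analysed here. None was tested for lack of counts, and 7 (Ifna2, Ifna4, Ifna12, Ifna13, Ifne, Ifnl2 and Ifnl3) had 0 counts in all 8 libraries. That allows up to 0.188 to 0.223 CPM per library from a floor of 3 counts, for reads with a unique place. Reads without a unique place were left out, so the floor does not bound genes that have near copies. Ifnb1, interferon beta, had 1 count in wildtype 3 and none elsewhere. Ifng, interferon gamma, reached no more than 1 count per library, and Ifnk, interferon kappa, had 2 counts in each of knockout 1 and wildtype 1.

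Transcripts of the receptor and its kinases were well detected. Of 14 receptor and signalling genes 0 passed the test, 4 differences were positive and 10 negative, and the median was -0.04. Ifnar1, a receptor chain, was at 45.8 ± 2.37 CPM under the knockout label and 48.8 ± 2.94 CPM under the wildtype label (log2 difference -0.09, 95% interval -0.28 to 0.10). Jak1 was at 196 ± 16.6 CPM under the knockout label and 220 ± 26.4 CPM under the wildtype label (log2 difference -0.17, 95% interval -0.42 to 0.08). Stat2 and Irf9, whose proteins act together at the response element, differed by -0.05 (SE 0.12) and 0.02 (SE 0.17) and were named after their values were seen.

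The remaining lists gave 0 passing genes as well. Of 53 tested other interferon-stimulated genes, 19 differences were positive and 34 negative, with a median of -0.11. At an unadjusted p under 0.05, 2 were higher and 6 lower in the libraries labelled knockout, against 2.17% and 1.84% of all tested genes. The 2 higher ones, Ube2l6 (log2 difference 1.09, edgeR unadjusted p = 0.0361) and Ifitm1 (0.75, edgeR unadjusted p = 0.0357), both had their highest value in knockout 1, and without that library they differed by 0.36 and 0.35. Among the lower ones was Rnf213, a large ubiquitin ligase (-0.35, edgeR unadjusted p = 0.0405). Samd9l, an antiviral translation inhibitor and abundant at 126 ± 9.64 CPM under the knockout label and 149 ± 20.7 CPM under the wildtype label, differed by -0.25 (edgeR unadjusted p = 0.0508).

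Of 17 tested sensors and upstream factors 5 differences were positive and 12 negative, with Mavs, the mitochondrial adaptor of RNA sensing, at 0.13 (SE 0.11) and Irf5 at -0.41 (SE 0.24). Of 13 negative regulators 7 were positive and 6 negative. Setdb2, a chromatin methyltransferase, was the 1 gene of that list whose groups did not overlap, against 1.97% of all tested genes, at 12.1 ± 1.69 CPM under the knockout label and 9.40 ± 0.611 CPM under the wildtype label (log2 difference 0.36, SE 0.14; edgeR unadjusted p = 0.0222, adjusted p = 0.957).

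In the ISG15 conjugation system, which includes Isg15 and Usp18, 2 of 6 differences were positive, Isg15 and Ube2l6, and Uba7, the activating enzyme, differed by -0.29 (SE 0.15). In the oligoadenylate system, which includes Oas1a and Oasl2, 1 of 7 was positive, Oas1c at 0.04 (SE 0.21), and the median was -0.23. Oas2 differed by -0.94 (SE 0.44). These values did not pass the test (edgeR adjusted p = 0.957 for each of Uba7 and Oas2).

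The interferon-inducible GTPases, counted apart from the 9 genes, had 15 of 15 negative differences with a median of -0.76, and 7 of them were lower at an unadjusted p under 0.05, against 1.84% of all tested genes. Igtp was at 17.4 ± 4.58 CPM under the knockout label and 34.3 ± 14.2 CPM under the wildtype label (log2 difference -0.98, SE 0.32; edgeR adjusted p = 0.957). Wildtype 2 and wildtype 3 held 10 and 14 of the 111 pathway genes at 2 times or more the median of the other libraries, against 1.45% and 0.901% of all tested genes in those libraries, and none of the 9 response genes. Readouts of interferon gamma, such as the chemokine gene Cxcl10 (-0.75, SE 0.41), were negative in 9 of 9 with a median of -0.36. Cxcl10 differed by -0.19 without wildtype 3, its highest library at 5.88 CPM. Cd274 differed by -0.52 (SE 0.19; edgeR unadjusted p = 0.0203, adjusted p = 0.957), and by -0.61 to -0.41 with 1 library left out at a time. It was the 1 gene of the interferon gamma list whose groups did not overlap, against 1.97% of all tested genes. The difference between these lists and the 9 genes was not tested.

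Marker genes of cells that make or answer interferon were summed in each library, and no gene of these lists was at 0 in all 8. Macrophage genes summed to 163 to 190 CPM under the knockout label and 157 to 218 CPM under the wildtype label. Csf1r, at 97.8 CPM on average, was the largest part of this sum and was lowest in knockout 1 (66.2 CPM). Lyz2 (44.0 CPM), C1qa (19.6 CPM), C1qb, C1qc and Mrc1 were instead highest in knockout 1, and Adgre1, Cd68, Aif1 and Cx3cr1 were highest in other libraries. The sum thus does not stand for each marker. Of the plasmacytoid dendritic cell list, the defining markers Siglech and Ccr9 averaged only 0.376 and 0.357 CPM, too low to test. Its sum, 29.5 to 38 CPM under the knockout label and 29.2 to 36 CPM under the wildtype label, came mostly from Irf8 (14.3 CPM on average), Bst2 (10.7 CPM), which is itself an interferon-stimulated gene, and Ly6d (4.93 CPM), and does not measure that cell type. Endothelial genes summed to 493 to 553 CPM under the knockout label and 435 to 461 CPM under the wildtype label, so the groups did not overlap, with 10 of 10 differences positive and 0 passing the test. Their part in the levels of the 9 genes was not tested.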

How the data were processed

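Whole-kidney RNA was sequenced as 8 libraries after Trizol extraction and directional library preparation, per the labels' protocols. The deposited values are raw counts of reads per gene, made by the authors with STAR and HTSeq on mm9, per the submitters' processing notes, which also name edgeR; which versions and annotation is not given in the sources used here. Counting ignored strand, per the names of the deposited files, so antisense reads are not separated. Lines naming no gene (no feature 11.6% to 16.2%, ambiguous 2.05% to 2.31%, not unique 15.8% to 20.9%) were left out.

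Symbols and positions come from GENCODE M21 on GRCm38 by identifier (32860 matched), and no coordinate was converted. The test was the edgeR 4.0.16 quasi-likelihood test in R 4.3.3 with robust dispersion, TMM scaling and the filterByExpr filter (minimum count 10, minimum total count 15), with Benjamini-Hochberg adjustment over 14433 genes and a threshold of 0.05. The test was also run on simulated data, and the outcome is not reported here. Log2 CPM for correlations used a prior count of 2. Floors of 3 counts and intervals cover counting error and library spread only, since PCR copies count as reads. Alternatives were other scalings and filters, DESeq2 1.42.0, limma-voom 3.58.1, a replicate block, and libraries left out. The members, the 24 gene lists and the alternatives were chosen with earlier results of these data known. Besides the 9 genes, the text names from each pathway list up to 4 genes with the lowest p and 2 with the highest level, and the 12 genes most like the mean profile; not all of these are printed, and some are not reported here. Other genes named (Stat2, Irf9, Cmpk2, Isg20, Ifit3b, the interferon genes and red cell genes among them) were chosen after their values were seen.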

Additional observations from a re-analysis of the deposited data

Results flagged for a closer look

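In 92 groups of 4 libraries checked over 46 named genes, 4 held a library that stood apart by Dixon's criterion (critical value 0.829), and 0 of these were among the 9 interferon response genes; chance flags about 1 group in 20. Ube2l6 was at 16.1 CPM in knockout 1, with the nearest library labelled knockout at 5.49 CPM. Irf5 was at 33.8 CPM in knockout 3, with the nearest at 18.1 CPM. Igtp was lowest in knockout 2, at 10.6 CPM, with the nearest at 18.9 CPM. Ifitm1 was lowest in wildtype 2, at 2.94 CPM, with the nearest library labelled wildtype at 4.49 CPM.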

How the results depend on the processing

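Over 18 alternative settings, 157 of 162 log2 differences of the 9 genes kept their sign and their side of the threshold and 5 changed sign; 654 of 666 did so for the other named genes, 10 changed sign and 2 passed the threshold. No gene of the 9 passed under any setting. Genes passing among all tested numbered 0, against 4 by DESeq2 and 1 without the heat-shock libraries (knockout 2 and 4); genes at an unadjusted p under 0.05 numbered 578, against 879 without a filter, 1075 with a replicate block and 904 without the heat-shock libraries. There Ifit2 was -0.07, Stat3 -0.14 and Mavs -0.00092. The replicate block called 0 of the 9 genes and 0 genes in all; correlations of same-numbered libraries were 0.226, -0.23, 0.282 and 0.293, and knockout 2 correlated best with wildtype 1 (0.453), so a pairing by number was not established and is not excluded for the other numbers. Leaving out 1 library at a time gave 0 to 2 passing genes (1 without knockout 3, 1 without knockout 4, and BC023105 at -2.89 and Gm4841 at -2.72 without wildtype 1), 343 (without wildtype 2) to 1252 (without knockout 3; 1250 without wildtype 1) at an unadjusted p under 0.05, 0 to 2 in the pathway lists, and a median difference of the 9 genes from -0.113 (without wildtype 4) to 0.084 (without knockout 3). Ranges of differences whose sign changed were Ifit1 -0.16 to 0.08, Isg15 -0.10 to 0.58 (negative without knockout 1), Usp18 -0.15 to 0.05, Adar -0.10 to 0.02, Herc6 -0.19 to 0.0021, Oas1c -0.07 to 0.19, Ptpn11 -0.18 to 0.01 and Stat3 -0.06 to 0.13, and the correlation of Oasl2 with Rsad2 ran from -0.81 to 0.01. The causes were not tested. Depth limits Oas1a and the interferon genes most.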
